A study of Mus musculus with 8 samples.

Results

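Promoter regions that were open in every cortex library are described here. The peaks of all 8 ATAC-seq libraries on chromosomes 1 to 19, X and Y were merged into 197916 regions wherever they overlapped by 1 bp or more. A region was kept when all 8 libraries had a peak in it, its merged width was under 2000 bp and its midpoint lay within 3 kb of a transcription start site (TSS) in the GENCODE annotation of mm10 (GRCm38). These rules left 20354 regions, which made up 10.3% of all merged regions, 28.4% of the 71712 regions with a peak in all 8 libraries and 53.4% of the 38149 promoter regions. Presence of a peak in all libraries was itself a measured value, so that presence, width and distance are descriptions of the choice and carry no test.

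In ATAC-seq, the transposase Tn5 cuts accessible DNA and adds sequencing adapters to it. The libraries came from male C57BL/6 mice aged 14 weeks, 1 mouse per library, 3 weeks after surgery. In the 4 BCAS mice (bilateral common carotid artery stenosis, a model of chronic cerebral hypoperfusion), a narrower microcoil was placed on the right and a wider one on the left common carotid artery. In the 4 sham mice, the arteries were exposed and no coil was placed. The sample labels give the cortex of the right hemisphere, whereas the quality table of the study describes whole-brain cortex, and the side was not settled here. All cortical cell types were pooled in each library, so fewer nuclei of a type and less open chromatin per nucleus cannot be told apart. The lists held 107391 to 144988 peaks in the sham and 119565 to 160720 peaks in the BCAS libraries on these chromosomes. The depth behind each peak is unknown, since the lists hold no read counts. By the quality table of the study, reads were richer in GC in sham 1, 2 and 3 and BCAS 1 than in sham 4 and BCAS 2, 3 and 4, so that read GC and surgery overlapped in part.

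A promoter is the stretch of DNA round a TSS on which RNA polymerase II and the general transcription factors assemble. In mammals many promoters lie in CpG islands, which mostly stay free of DNA methylation across cell types, and genes used by every cell tend to have such promoters. Promoters of genes used by a single cell type are more often poor in CpG and are opened by factors of that cell type, such as PU.1, an ETS factor of microglia and other myeloid cells that is encoded by Spi1. Divergent promoters drive a pair of genes away from each other from a shared open region.

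The following windows of 200 bases, centred on the median summit of the 8 libraries, show what such regions look like at the sequence level. All are written along the nearest gene, 5′ to 3′, from mm10. Capitals mark matches, in either orientation, to the 14 short motifs that were searched. The first 3 were the member regions with the highest mean height rank among named genes. They lay at chr12:91384399-91384598 (Cep128, minus strand), chr4:86612069-86612268 (Haus6, minus strand) and chr13:112578165-112578364 (Il31ra, minus strand). The capitals in the Haus6 window are a match to the motif of NFY and a match to the motif of promoter ETS factors, and the other windows held none of the 14.
Cep128: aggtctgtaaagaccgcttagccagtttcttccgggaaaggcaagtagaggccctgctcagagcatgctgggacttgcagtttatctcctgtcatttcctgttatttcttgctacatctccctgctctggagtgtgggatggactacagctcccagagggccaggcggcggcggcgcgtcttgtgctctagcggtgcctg
Haus6: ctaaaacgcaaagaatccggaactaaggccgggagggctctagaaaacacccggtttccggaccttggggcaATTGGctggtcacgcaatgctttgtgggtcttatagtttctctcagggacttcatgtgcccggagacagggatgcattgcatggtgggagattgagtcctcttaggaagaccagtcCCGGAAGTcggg
Il31ra: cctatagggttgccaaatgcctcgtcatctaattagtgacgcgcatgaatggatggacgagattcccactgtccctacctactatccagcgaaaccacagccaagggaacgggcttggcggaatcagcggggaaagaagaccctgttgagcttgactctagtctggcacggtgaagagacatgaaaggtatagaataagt

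The next windows were higher in BCAS. Phf11d (chr14:59365351-59365550, minus strand), Nlrp1b (chr11:71230781-71230980, minus strand), Clec4a1 (chr6:122921508-122921707, plus strand), Trim5 (chr7:104288156-104288355, minus strand) and Fgd3 (chr13:49298522-49298721, minus strand) were among the 10 largest increases. Trim12a (chr7:104315472-104315671, minus strand) and Nckap1l (chr15:103453618-103453817, plus strand) are shown, after their values were seen, because they hold the PU.1 letters GAGGAAGT or their reverse complement, as do Nlrp1b, Trim5 and Fgd3. The remaining capitals are NFY matches and, in Nckap1l, an SP1 and KLF match. The windows of Trim5 and Trim12a shared an unbroken run of 186 bases, so that reads from these copies may have been split between them.
Phf11d: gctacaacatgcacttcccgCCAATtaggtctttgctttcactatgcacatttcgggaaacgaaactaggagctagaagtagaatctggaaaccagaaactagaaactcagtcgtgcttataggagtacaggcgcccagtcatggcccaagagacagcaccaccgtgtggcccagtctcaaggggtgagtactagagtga
Nlrp1b: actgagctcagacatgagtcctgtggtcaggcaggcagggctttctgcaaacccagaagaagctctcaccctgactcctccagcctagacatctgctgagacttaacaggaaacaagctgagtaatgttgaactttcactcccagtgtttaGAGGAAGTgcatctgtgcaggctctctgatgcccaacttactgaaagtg
Clec4a1: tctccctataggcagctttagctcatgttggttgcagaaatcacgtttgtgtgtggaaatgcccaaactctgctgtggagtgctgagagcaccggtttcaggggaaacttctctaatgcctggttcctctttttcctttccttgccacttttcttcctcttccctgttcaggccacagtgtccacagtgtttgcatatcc
Trim5: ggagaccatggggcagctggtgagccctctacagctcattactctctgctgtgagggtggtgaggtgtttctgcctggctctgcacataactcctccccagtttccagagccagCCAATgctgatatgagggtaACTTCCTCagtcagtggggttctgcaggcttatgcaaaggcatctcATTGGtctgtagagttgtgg
Fgd3: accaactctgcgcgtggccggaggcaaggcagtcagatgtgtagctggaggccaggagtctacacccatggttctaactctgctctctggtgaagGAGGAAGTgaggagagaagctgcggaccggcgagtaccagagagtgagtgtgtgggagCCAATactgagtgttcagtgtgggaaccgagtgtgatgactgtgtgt
Trim12a: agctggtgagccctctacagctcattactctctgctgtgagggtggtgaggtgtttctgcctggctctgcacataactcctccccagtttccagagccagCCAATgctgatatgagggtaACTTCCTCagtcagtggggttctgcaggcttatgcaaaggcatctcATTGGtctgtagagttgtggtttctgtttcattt
Nckap1l: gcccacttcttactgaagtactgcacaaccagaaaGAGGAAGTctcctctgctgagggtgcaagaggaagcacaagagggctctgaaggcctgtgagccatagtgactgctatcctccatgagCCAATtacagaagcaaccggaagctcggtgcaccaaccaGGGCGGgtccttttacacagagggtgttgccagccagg

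Another 4 windows were lower in BCAS. Inpp5d (chr1:87621860-87622059, plus strand) and Tmem37 (chr1:120074392-120074591, minus strand) showed the largest decreases among named genes whose groups did not overlap, and held none of the motifs. Nlrp3 (chr11:59544091-59544290, plus strand) and Cd200r1 (chr16:44766583-44766782, plus strand) hold the AP-1 letters TGANTCA and are shown for them.
Inpp5d: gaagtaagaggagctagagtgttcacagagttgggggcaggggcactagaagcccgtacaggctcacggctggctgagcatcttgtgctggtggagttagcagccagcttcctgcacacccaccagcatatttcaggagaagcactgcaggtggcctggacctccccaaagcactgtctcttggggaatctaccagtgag
Tmem37: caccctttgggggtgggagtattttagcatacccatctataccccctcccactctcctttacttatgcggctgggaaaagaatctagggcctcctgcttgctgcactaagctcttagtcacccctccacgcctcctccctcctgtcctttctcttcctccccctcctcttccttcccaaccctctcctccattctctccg
Nlrp3: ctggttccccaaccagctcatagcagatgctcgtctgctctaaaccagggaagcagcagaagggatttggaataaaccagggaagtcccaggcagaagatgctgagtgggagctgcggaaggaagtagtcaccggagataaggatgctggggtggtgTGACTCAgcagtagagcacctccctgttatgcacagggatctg
Cd200r1: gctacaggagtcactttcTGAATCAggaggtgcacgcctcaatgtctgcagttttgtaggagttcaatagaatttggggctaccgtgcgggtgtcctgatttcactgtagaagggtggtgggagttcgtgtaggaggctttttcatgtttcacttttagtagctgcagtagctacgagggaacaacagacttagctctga

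The member regions sat at the start of genes and were compact. Their median width was 812 bp, with quartiles of 568 and 1059 bp, and the midpoint lay a median of 179 bp from the nearest TSS. Of the 20354 regions, 14154 (69.5%) had their midpoint within 500 bp of a TSS, compared with 27.3% of the 17706 promoter regions that were called in 1 to 7 libraries. The summit lay upstream of the TSS in 64.8% of the members, at a median of 45 bp upstream. In 17017 members (83.6%), each library had a single peak. The 8 summits of a member spanned a median of 61 bp, compared with 80 bp in the 28491 intronic and 78 bp in the 20817 distal regions that were also open in all libraries and under the same width.

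At the limits of the rule, the widest members lay at Brwd1 (1992 bp) and Ddx3x (1989 bp), and the nearest excluded regions lay at Zfpm2 (2000 bp) and Vldlr (2002 bp). The most distant members lay 2999 bp from the TSS of Mtus2 and 2998 bp from that of Jmjd1c, whereas regions at Clpb and Endou fell outside at 3001 bp. In all, 89 promoter regions open in all libraries were excluded for their width.

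The nearest TSS belonged to 17472 different genes and was that of a protein-coding gene for 14875 members (73.1%). Long intergenic RNA genes were nearest to 1461 members, antisense RNA genes to 984, processed pseudogenes to 847 and microRNA genes to 355. Seen from the genes, 14193 of 21911 protein-coding genes (64.8%) had at least 1 member within 3 kb of a TSS, 78 had a wider region alone, 2287 had only promoter regions called in some of the libraries and 5353 had none. The largest number of members nearest to 1 protein-coding gene was 8, at Gramd1b, which encodes a sterol transfer protein. Chromosome X held 560 members and chromosome Y held 5.

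The sequence of the member regions differed from that of other open regions. Within 100 bp of the summit, the median GC content was 61.5% in members, 49.5% in intronic and 48.5% in distal regions, and the median ratio of observed to expected CpG was 0.667, 0.225 and 0.222. By a GC content of at least 50% and a CpG ratio of at least 0.6 in this window, 11121 members (54.6%) were CpG island-like, compared with 2.56% of intronic, 3.9% of distal and 11.2% of partly called promoter regions. Divergent TSS pairs lay at 925 members (4.54%) and at 0.271% of the partly called promoter regions. These shares come from single regions of 1 genome and describe how the regions are built.

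The motifs followed the same division. The SP1 and KLF letters GGGCGG, a GC box, occurred in 45.6% of members (Wilson 95% interval 44.9 to 46.3), compared with 13.4% of partly called promoter regions, 6.69% of intronic, 6.83% of distal and 10.2% of all merged regions. The letters CCGGAAGT of promoter ETS factors occurred in 4.54% of members and 0.216% of distal regions. The NRF1 letters CGCATGCG, bound by a regulator of nuclear genes for mitochondria, occurred in 1.91% and 0.192%, and the YY1 letters AANATGGCG in 2.78% and 0.312%. The CREB letters TGACGTCA were present in 2.22% and 0.312%, the E-box CACGTG of USF and MYC in 6.27% and 2.67%, the letters ACTACAANT of THAP11 and ZNF143 in 1.71% and 0.524%, and the NFY letters CCAAT in 27.5% and 21.5%. The CTCF letters AGGGGGCGC, which overlap the GC box, occurred in 1.62% and 0.706%.

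Other letters were less frequent in members than in distal regions. AP-1 letters were present in 7.03% of members and 18.7% of distal regions, NEUROD1 letters CAGATGG in 4.82% and 11.6%, MEF2 letters TATTTNTAG in 0.884% and 2.49%, and the letters TATAAA of the TATA box, a core promoter element, in 4% and 10.9%. The PU.1 letters occurred in 1.95% of members (interval 1.76 to 2.14), 1.93% of distal regions (interval 1.75 to 2.13) and 3.98% of partly called promoter regions. Motifs were sought in both orientations in the 200 bases round the summit, the intervals cover counting error only, and a match describes letters and not a bound site.

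**Figure D1:**
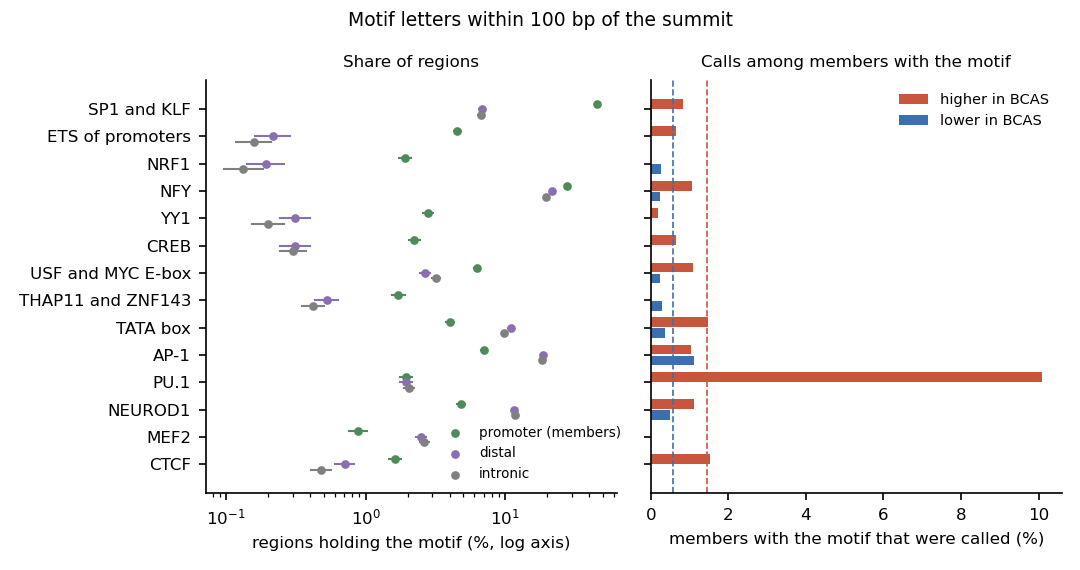
Left, the share of member (promoter), distal and intronic regions that hold each motif on a log axis, with Wilson 95% intervals as bars. Right, the percentage of members with the motif that were called higher (red) or lower (blue) in BCAS, with dashed lines at the 1.44% and 0.577% of all tested regions; the bar for PU.1 reaches 10.1%.

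The peaks in member regions were taller than those in other regions open in all libraries. Height was taken as the fold enrichment that the authors give at the summit of the highest peak of a library in a region, and was ranked within each library over the 71712 regions with a peak in all 8 libraries. The median height percentile of members was 64.78, 62.39, 61.41 and 62.12 in sham 1 to 4. In BCAS 1 to 4 it was 63.56, 66.46, 66.85 and 66.9, and the groups overlapped. In each of the 8 libraries the members ranked above the intronic and above the distal regions. The margin over intronic regions averaged 21.8 percentile points ± 2.62 (SD, n = 8) and that over distal regions 13.2 ± 3.72 (SD, n = 8), each with p = 0.00781 by an exact two-sided sign-flip test, which is the smallest p that 8 libraries can give. The libraries were scored on the same regions, and presence in all of them was required of each class.

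**Figure D2:**
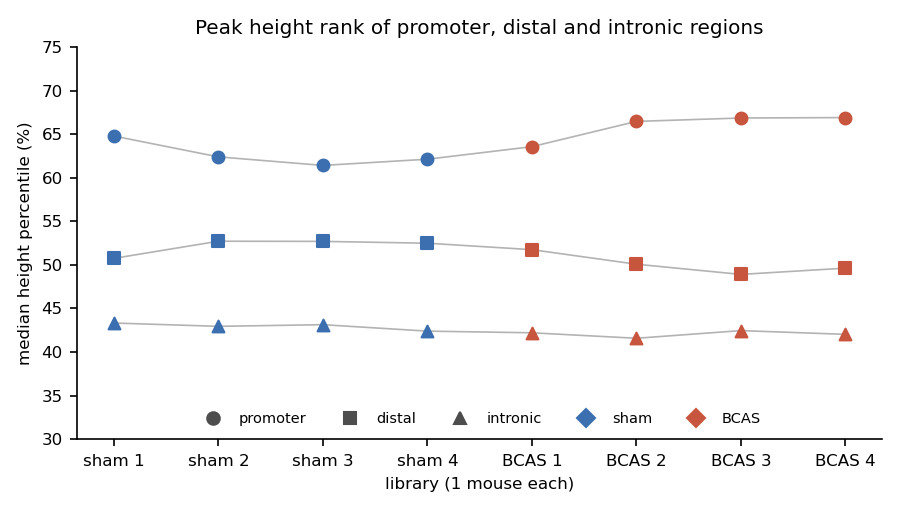
Median height percentile (vertical axis, %) of promoter members (circles), distal (squares) and intronic regions (triangles) open in every library, for each of the 4 sham (blue) and 4 BCAS (red) libraries. The circles lie between 61.41 and 66.9, above the squares and triangles of the same library in all 8.

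Within the members, height went with distance from the TSS and with CpG content. The median height percentile was 80.3 for members whose midpoint was at most 100 bp from a TSS and 70.1 for those farther away but within 500 bp. It was 36.5 from there to 1 kb, 33.7 from 1 to 2 kb and 37 from 2 to 3 kb. It was 78.2 in CpG island-like and 43.2 in other members, 86.4 at divergent pairs and 60.9 elsewhere. Members on chromosome X, of which a male cell has a single copy, had a median percentile of 76.4, compared with 62.3 on the autosomes. Members with the THAP11 and ZNF143 letters had a median of 91.2 and those without a median of 62, and the corresponding values for the ETS letters of promoters were 87.6 and 60.9. Members with the MEF2 letters had a median of 36.8.

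**Figure D3:**
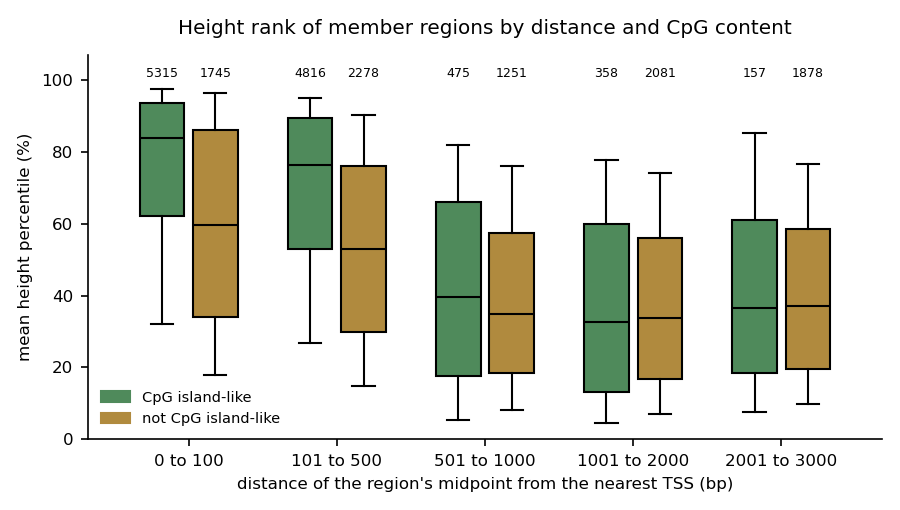
Mean height percentile of single members (vertical axis, %) by distance of the midpoint from the TSS (bp), for CpG island-like (green) and other members (brown). Boxes span the quartiles with the median, whiskers the 10th to 90th percentiles, and the number of regions stands above each box; boxes within 500 bp of a TSS lie higher.

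The 10 tallest named members all had a mean percentile of at least 99.91. Cep128, which encodes a protein of the mother centriole, had scaled heights of 24.9, 26, 26 and 25 in the sham and 23.3, 23.5, 23.2 and 23 in the BCAS mice, where scaled height is the fold enrichment after quantile normalization across libraries. The groups did not overlap at Cep128, although the difference was small (log2 difference, BCAS minus sham, -0.13 ± 0.04, SE; adjusted p = 0.0699, limma). Haus6, a subunit of the augmin complex of the spindle, had 22.5 to 24.9 in sham and 22.4 to 24.5 in BCAS mice, which overlapped. Cenpf, Spc25 and Knstrn encode proteins of the kinetochore, where chromosomes attach to the spindle, and their scaled heights over the 8 libraries were 21.8 to 24.3, 21 to 24 and 20.9 to 24.3. The others were Exoc4 of the exocyst, Scfd1 of transport from the endoplasmic reticulum, Ccdc77, the Mediator subunit Med23, and a region 2399 bp from the TSS of the cytokine receptor gene Il31ra.

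The 10 steadiest named members, by the SD of log2 height over the 8 libraries, had SDs of 0.021 to 0.030, compared with a median of 0.153 over all members, 0.212 over intronic and 0.218 over distal regions. The region of the zinc finger gene Zfp433 had scaled heights of 19.4 to 20.1 in sham and 19.4 to 20.2 in BCAS mice. Rpl37, a protein of the large ribosomal subunit, had 14.4 to 14.8 and 14.4 to 15.1, and Polb, the DNA polymerase of base excision repair, had 11 to 11.4 and 10.8 to 11.2. The remaining members of this set were Gpc2, Tigd2, Ndufaf5, Ginm1, Dhtkd1, Ubl3 and Calcoco1. All 10 lay within 500 bp of a TSS. The median SD was 0.128 in CpG island-like and 0.191 in other members.

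Gene groups differed in how many of their promoters belonged to the set, which can be read beside the 64.8% of all protein-coding genes. Of 35 genes of oxidative phosphorylation, 35 had a member, as did 27 of 27 proteasome and chaperone genes, 29 of 29 genes of splicing and transcription, 31 of 31 genes of the hypoxia response and 21 of 21 circadian clock genes. Of 37 cytosolic ribosomal protein genes, 36 had a member, and Rpl7 had a region over the width limit. The median percentile of the tallest member of each gene was 89.4 for oxidative phosphorylation, 86.8 for the proteasome and chaperones and 83.5 for ribosomal proteins. Cox7c, a subunit of cytochrome c oxidase, stood at 99.6, Psmc4, a proteasome ATPase, at 99.9 and Rpl27 at 97.6.

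In the lists of neurons and glia, 71.4% to 100% of the genes had a member, at lower heights. All 28 synaptic vesicle and axonal genes and all 22 activity-regulated genes had a member, as did 20 of 22 excitatory neuron genes, 15 of 21 inhibitory neuron genes, 19 of 20 astrocyte genes and 17 of 21 genes of oligodendrocytes and their precursors. Median percentiles were 54.8 for synaptic, 43.3 for activity-regulated, 35.4 for excitatory, 30 for inhibitory, 39.3 for astrocyte and 41.4 for oligodendrocyte genes. The interneuron genes Sst, Vip, Lhx6, Dlx2, Dlx6 and Sp8 had no member. Syn2, a synaptic vesicle protein, stood at 95.2 and the astrocyte enzyme gene Aldh1l1 at 81.9, whereas the astrocyte filament gene Gfap stood at 37.2.

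Lists of microglia, vessels and immune responses had members at 50% to 80.8% of their genes, a range that overlaps that of the neuronal and glial lists. Of 29 microglial genes 21 had a member, of 28 genes of microglial phagocytosis 21, of 26 endothelial and mural genes 13, of 32 interferon-stimulated genes 22 and of 26 NF-kB and inflammasome genes 21. Among the microglial genes, Tmem119, Ptprc, Itgam, Gpr34, Fcrls, Ctss, Cd53 and Laptm5 had promoter regions called in some libraries only. Most genes of cells that the tissue should lack had no member. Of 22 lymphocyte genes 2 had a member, and the T and B cell receptor genes Cd3d, Cd3e, Cd3g and Cd79a had none, while Lck was counted through a region whose nearest TSS belongs to Mir8119. Of 20 liver genes 4 had a member, of 20 germline genes 6 and of 17 olfactory and taste receptor genes 1. A further 7 lymphocyte, 3 liver, 2 germline and 3 olfactory and taste receptor genes had promoter regions called in some libraries only. The single receptor, Tas1r1, was counted through the promoter of its neighbour Nol9, and Apoa2 through that of Tomm40l. The germline gene Tnp2 was counted through a region nearest to Socs1, and Piwil1 through one nearest to 4930553I04Rik. These members were assigned to the listed gene by distance alone.

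The comparison of BCAS with sham mice addressed whether chronic hypoperfusion changed the openness of these promoters. Over all members together, the values per library below did not differ by the exact tests, which does not show that openness was unchanged. Of a library's peaks, 17.67% ± 2.56 (SD, n = 4) lay in member regions in sham and 16.46% ± 2.11 (SD, n = 4) in BCAS mice. The difference was smaller than either SD (p = 0.514, two-sided exact permutation test). By the rule every member holds a peak of every library, so this share mostly follows the number of peaks in a list. It cannot show a change in openness. The median width of these peaks was 574.2 bp ± 45.4 (SD, n = 4) in sham and 600 bp ± 26.6 (SD, n = 4) in BCAS mice (exact permutation test, p = 0.4). The median height percentile averaged 62.68 ± 1.46 (SD, n = 4) in sham and 65.94 ± 1.6 (SD, n = 4) in BCAS mice, a difference of 3.27 points that did not pass the test (exact permutation test, p = 0.0571, where the smallest possible p is 0.0286). Among the 3 sham and 1 BCAS libraries with GC-richer reads the difference was 0.7 points, and among the 1 sham and 3 BCAS libraries with GC-poorer reads it was 4.61 points. Ranks within a library cannot show a shift shared by all open regions.

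Region by region, log2 heights were compared with limma over all 71712 regions, with Benjamini-Hochberg adjustment over all of them. A height was called higher in BCAS at 257 members (1.26% of members; 1.44% of all regions tested) and lower at 52 (0.255% of members; 0.577% of all regions tested), with an adjusted p under 0.05. The members' share was close to the background for higher and below it for lower calls, and these shares were not tested against each other. At an unadjusted p under 0.05, 1684 members were higher and 745 lower. The groups did not overlap at 1685 members (8.28%; 8.53% of all regions tested). The difference was within 0.25 on the log2 scale at 85.8% of members, 76.1% of intronic and 74.8% of distal regions. It was positive at 60.7% of members and 49.8% of all regions tested. The median difference over members was 0.034, compared with -0.001 over all regions tested, and when heights were normalized over the members alone the calls became 193 higher and 98 lower, so that 66.3% in place of 83.2% of the calls were higher. With the read GC class in the model, 74 members were called higher and 7 lower. Counts of higher calls were 162, 168, 162 and 158 without sham 1, BCAS 2, BCAS 3 or BCAS 4, and counts of lower calls were 18 to 34 without any one of sham 1, 2 or 3 or BCAS 2, 3 or 4.

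Calls were unevenly spread over the members. CpG island-like members gave 55 higher and 5 lower calls among 11121 regions (0.495% and 0.045%). The other 9233 members gave 202 and 47 (2.19% and 0.509%), and the shares over all regions tested were 1.44% and 0.577%. Of the 52 lower regions, 39 lay more than 500 bp from a TSS, as did 93 of the 257 higher regions and 30.5% of all members. The nearest TSS was that of a protein-coding gene for 155 of the 257 higher and 21 of the 52 lower regions. It was so for 73.1% of all members. The size of the called differences ranged from 0.26 to 1.38 (median 0.68) for higher and from 0.34 to 1.05 (median 0.57) for lower regions.

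**Figure D4:**
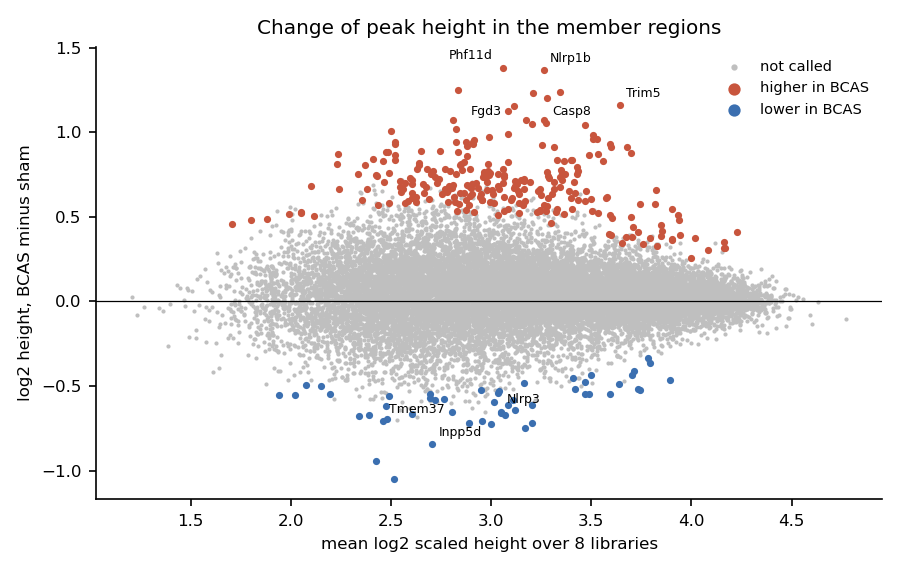
Log2 difference in height, BCAS minus sham (vertical axis), against the mean log2 scaled height over 8 libraries (horizontal axis) for each of the 20354 members. Red points are the 257 members called higher, blue points the 52 called lower and grey points the rest, and the spread narrows towards tall peaks.

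The 10 largest increases among named genes kept their calls in every alternative run, the read GC class included, with adjusted p-values of at most 0.0394 (limma). Nlrp1b encodes a sensor that starts an inflammasome, and its promoter (chr11:71230655-71231145) had scaled heights of 7.41, 6, 3.82 and 7.51 in the 4 sham mice against 14.8, 14.8, 15.3 and 16.7 in the 4 BCAS mice. The lowest BCAS mouse was above the highest sham mouse (log2 difference 1.37 ± 0.17, SE; adjusted p = 0.000309, limma). Phf11d, a PHD finger gene, had 5.71, 5.43, 3.54 and 6.51 in sham and 13.4, 12.9, 13.6 and 14 in BCAS mice (1.38 ± 0.16, SE; adjusted p = 0.000182, limma). Casp8, the initiator caspase of death receptors, had 4.85 to 8.51 in sham and 13.3 to 15.2 in BCAS mice (1.05 ± 0.14, SE). At each of these promoters the groups were apart, as the rule for naming the largest changes required.

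Clec4a1 and Clec4a3, neighbouring genes for C-type lectin receptors of myeloid cells, were both higher in BCAS. Clec4a1 had scaled heights of 4.69 to 9.14 in sham and 11.9 to 15.9 in BCAS mice (log2 difference 1.23). Clec4a3 had 5.15 to 8.51 in sham and 12.4 to 16.2 in BCAS mice (1.20). Fgd3, an exchange factor for small GTPases, had 5.15 to 6.63 in sham and 11.2 to 13.2 in BCAS mice, and Pctp, a phosphatidylcholine transfer protein, had 6.15 to 8.83 and 15.5 to 16.4. Ptgs2os2, a noncoding gene, had 3.98 to 5.83 in sham and 8.87 to 14.7 in BCAS mice, and no TSS of another gene lay within 3 kb of the region's midpoint.

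A cluster of Trim genes on chromosome 7, which encode restriction factors against retroviruses and related E3 ligases, held 5 higher members. Scaled heights at Trim5 were 5.28, 8.18, 12 and 9.47 in sham and 18.5, 17.1, 19.5 and 19.8 in BCAS mice (log2 difference 1.16), and those at Trim30a were 4.85 to 8.83 and 13.1 to 15.3 (1.07). Trim12a, Trim34a and Trim12c, named after their values were seen, differed by 0.91, 0.77 and 0.35. On chromosome 17, the major histocompatibility genes H2-Q4, H2-Q5, H2-Q6, H2-K2 and H2-T24 differed by 0.75, 0.83, 0.83, 0.70 and 0.70 and passed the test, whereas H2-Q7 (0.38, adjusted p = 0.081), H2-K1 (0.33, adjusted p = 0.0769), both H2-T23 regions (0.40 and 0.20), H2-M3 (0.17), H2-D1 (0.14) and H2-T22 (0.04) did not (limma). These families hold near-identical copies, and values of single copies are uncertain. How the authors treated reads that fit several copies is not given in the sources used here. Nlrp1b, Phf11d, Clec4a1 and Clec4a3 also have related copies in the genome, so the same limit may hold for them.

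The largest decreases were smaller, and 30 of the 52 lower regions lay nearest to predicted or unnamed genes, as did 98 of the 257 higher regions. Inpp5d encodes SHIP1, a phosphatase that restrains immune receptor signalling, and a region 1340 bp from one of its TSSs had scaled heights of 11.3, 7.02, 8.21 and 8.95 in sham and 4.48, 4.83, 5.2 and 4.97 in BCAS mice (log2 difference -0.85 ± 0.16, SE; adjusted p = 0.00695, limma). Nlrp3, the sensor of another inflammasome, had 11.9, 9.14, 11.2 and 9.47 in sham and 6.74, 7.14, 5.5 and 7.13 in BCAS mice 1509 bp from a TSS (-0.65 ± 0.14, SE; adjusted p = 0.0166, limma). Tmem37 had 6.36 to 7.52 in sham and 3.67 to 4.78 in BCAS mice (-0.71). The groups were apart at each of these regions, as the same naming rule required.

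A region 1129 bp from a TSS of Ccl5, a chemokine, fell by 0.70 on the log2 scale. A region 979 bp from a TSS of Cd200r1, an inhibitory receptor of myeloid cells, fell by 0.58. At Ptger4, a receptor for prostaglandin E2, a region 1725 bp from a TSS fell by 0.56 at a low level. Its scaled heights were 4.26 to 4.9 in sham and 2.74 to 3.87 in BCAS mice. The remaining named decreases lay at Spata21 (-0.67), the cation channel gene Trpm3 (-0.61), Rd3l (-0.58) and Pcnx4 (-0.56). These regions lay 573, 2813, 2 and 2366 bp from a TSS, in that order. With the read GC class in the model, Inpp5d alone of the 10 kept its call (adjusted p of at most 0.0435 over its alternatives, limma), and the calls at Ccl5, Cd200r1, Ptger4 and Pcnx4 were lost in 10 to 12 alternatives each. The call at Nlrp3 was also lost without sham 1 or sham 3. Ly86, a microglial gene, was outside the naming rule because its groups overlapped. Its region lay 2086 bp from a TSS and differed by -0.94 ± 0.21 (SE; adjusted p = 0.0239, limma).

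**Figure D5:**
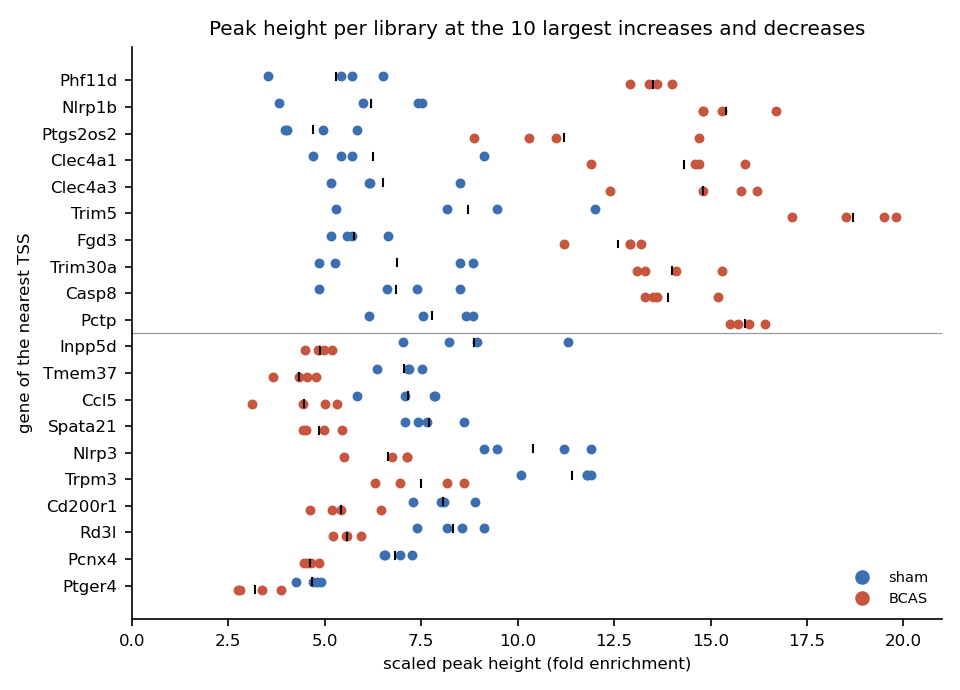
Scaled peak height (horizontal axis, fold enrichment after quantile normalization) of each sham (blue) and BCAS (red) library at the 10 largest increases and 10 largest decreases among named members; black ticks are group means. The groups do not overlap in any row, as the naming rule required.

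The PU.1 letters were carried by 396 members, of which 40 (10.1%) were called higher and 0 lower by limma (93 and 10 at an unadjusted p under 0.05), against 1.09% and 0.261% of the 19958 members without the letters. Over all regions tested, 146 of 1424 regions with the letters (10.3%) and 1.26% of those without were higher. Besides Nlrp1b, Trim5 and Fgd3, the 40 included Nckap1l, a haematopoietic regulator of actin, with 7.4 to 10.1 in sham and 15.1 to 17.8 in BCAS mice, Samsn1, an adaptor protein of haematopoietic cells, with 7.41 to 12.1 and 15.8 to 19.1, and Card9, an adaptor of fungal pattern receptors, with 3.02 to 5.68 and 6.28 to 7.92. Over all 396 members the median log2 difference was 0.070, compared with 0.033 over the members without the letters. With the read GC class in the model, 11 of the 396 (2.78%) were called higher, compared with 0.316% of members without the letters. The 40 became 25, 25, 24, 26 and 24 without sham 1, sham 2, BCAS 2, BCAS 3 or BCAS 4.

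The AP-1 letters were carried by 1431 members, of which 16 (1.12%) were called lower and 15 (1.05%) higher, against 0.19% and 1.28% of members without them. At an unadjusted p under 0.05, 157 were lower and 94 higher. Over all regions tested, 155 of 10838 regions with the letters (1.43%) were lower and 110 (1.01%) higher. Of the regions without them, 0.425% were lower and 1.52% higher, so the AP-1 pattern was not particular to members. Nlrp3, Cd200r1, Trpm3 and Pcnx4 were among the 16. Of the other 12 motifs, the NRF1 letters had 0 higher members of 389 by limma (8 at an unadjusted p under 0.05), the THAP11 and ZNF143 letters 0 of 349 (13), the MEF2 letters 0 of 180 (10) and the YY1 letters 1 of 566 (42). Over all regions tested, the higher calls with these letters were 1 of 478, 0 of 586, 16 of 1490 (1.07%) and 2 of 697, in the same order. The PU.1 and AP-1 counts were chosen after they had been seen and carry no test. The 16 became 2 to 9 without any one library and 2 with the read GC class in the model.

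In the gene lists, few member regions passed the test, and their counts can be read beside the 1.44% higher and 0.577% lower of all regions tested. Of 27 microglial member regions, Spi1 and Tyrobp rose and Ly86 fell, and the median log2 difference was 0.289, compared with 0.034 over all members. At an unadjusted p under 0.05, 10 of the 27 were higher and 4 lower. Their summed scaled height was 187.3 to 210.5 in sham and 205.2 to 220.7 in BCAS mice, which overlapped. Spi1 had 5.07, 5.26, 4.84 and 5.28 in sham and 8.19, 8.18, 9 and 8.64 in BCAS mice at a region 617 bp from its TSS (log2 difference 0.73 ± 0.13, SE; adjusted p = 0.00597, limma), and Tyrobp, the adaptor of Trem2 and other microglial receptors, had 4.42 to 6.32 and 8.36 to 9.56. At Trem2, Cx3cr1 and P2ry12 the differences were 0.49 ± 0.16, 0.39 ± 0.16 and 0.19 ± 0.12 (SE), none of which passed. The call at Spi1 was lost with the read GC class in the model (adjusted p = 0.054, limma). Tyrobp was also the single higher region of 28 at genes of microglial phagocytosis, whose median difference was 0.179, and 9 of the 28 were higher and 4 lower at an unadjusted p under 0.05.

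Of 24 member regions at interferon-stimulated genes, Bst2, which encodes tetherin, rose from 6.87 to 7.59 in sham to 9.98 to 12.1 in BCAS mice (log2 difference 0.57), and the summed height was 239.5 to 249.9 in sham and 254.6 to 277.3 in BCAS mice, which did not overlap. At an unadjusted p under 0.05, 7 of these 24 regions were higher and 0 lower. Nlrp3, which was lower, alone passed among 24 NF-kB and inflammasome regions (4 higher and 1 lower at an unadjusted p under 0.05). Of 34 excitatory neuron regions, a region of Mef2c and a region of Camk2a rose (0.58 and 0.52). The latter rose from between 3.08 and 3.76 in sham to between 4.26 and 5.46 in BCAS mice. The taller member of each gene did not pass, with 0.11 at Mef2c and -0.03 at Camk2a (adjusted p = 0.772 and 0.952, limma). Higher regions numbered 4 of the 34 and lower ones 0 at an unadjusted p under 0.05. The summed height of these 34 regions did not overlap between groups (191.1 to 198.7 in sham and 206.5 to 225.3 in BCAS mice), nor did that of the 45 synaptic and axonal regions (332.8 to 345.5 and 351.3 to 371.9), of which 0 passed in either direction by limma (1 higher and 0 lower at an unadjusted p under 0.05). Of the 22 lists, 4 had summed heights that did not overlap. The fourth was the germline and testis list, whose genes the cortex should not use. Its sums were 52.87 to 56.25 in sham and 59.74 to 64.74 in BCAS mice over 6 regions. Of these, the region for Tnp2 was nearest to Socs1 and that for Piwil1 to 4930553I04Rik. The summed heights of microglial, astrocyte, oligodendrocyte, endothelial and inhibitory neuron regions overlapped, and the part of cell composition in these sums was not tested. Stra8, a gene of meiotic entry, was the single higher region of the 6 germline ones (0.71), of which 2 were higher at an unadjusted p under 0.05.

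Housekeeping regions changed little. Of the 40 regions at ribosomal protein genes, 39 of oxidative phosphorylation, 29 of the proteasome and chaperones and 31 of splicing and transcription, 0 passed in either direction by limma, while 2, 1, 2 and 0 were higher and 0 lower at an unadjusted p under 0.05. The list medians were -0.001, 0.040, 0.024 and 0.053. Inhibitory neuron, astrocyte, oligodendrocyte, endothelial, activity-regulated, hypoxia and circadian regions also gave 0 calls by limma, with 2, 1, 1, 3, 5, 5 and 0 higher and 0, 1, 0, 2, 0, 2 and 1 lower at an unadjusted p under 0.05, and with medians between 0.021 and 0.088. The 2 lymphocyte, 4 liver and 1 receptor regions gave 0 calls at either threshold by limma.

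The study names 30 genes, of which 24 had a member, and these genes were partly chosen from these libraries, so their direction is not independent evidence. Of their 30 member regions, Spi1 and Elf4 rose (8 higher and 1 lower at an unadjusted p under 0.05), and the latter had 5.28, 8.18, 8.02 and 8.83 in sham and 12.1, 10.5, 13.9 and 14.5 in BCAS mice (log2 difference 0.76 ± 0.15, SE; adjusted p = 0.0114, limma). The call at Elf4 was lost with the read GC class in the model (adjusted p = 0.124, limma) and without BCAS 4. The phagocytosis genes Vav2, Ncf4 and Pik3cg differed by 0.38, 0.40 and 0.35 and had groups that did not overlap, yet their adjusted p-values were 0.0678, 0.13 and 0.239 (limma). Syk, Lyn, Ptpn6, Plcg2, Aif1 and Csf1r had differences of 0.17 to 0.40 and did not pass. The interferon pathway genes Ifnar1, Stat2, Irf1, Irf8, Irf9 and Gbp3 had differences of -0.16 to 0.17 with overlapping groups, and so had Elf5 (-0.27), Egr1 (0.20), Gapdh (-0.06) and Rbfox3 (-0.19). The region counted for Isg15 was nearest to AW011738. Of the other 6 genes, Itgam, Itgb2, Fcgr1, Gbp2, Irf7 and Ifnb1 had promoter regions called in some libraries only.

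The length covered by peaks inside the members gave fewer calls. It was called longer in BCAS at 34 members (0.167% of members; 0.166% of all regions tested) and shorter at 2 (0.00983%; 0.0335% of all regions tested), by limma on log2 lengths centred on each library's median. At Slc11a1, an ion transporter of phagosomes, 200, 400, 228 and 241 bp were covered in sham and 561, 706, 692 and 713 bp in BCAS mice (log2 difference 1.36 ± 0.21, SE; adjusted p = 0.0422, limma). Col15a1, a basement membrane collagen, had 212 to 346 bp in sham and 677 to 735 bp in BCAS mice, Gbp9, a guanylate-binding protein induced by interferon, had 295 to 405 and 719 to 1070 bp, and Pdlim2 and Platr29 rose by 1.30 and 1.64 on the log2 scale. Of the 34 longer members, 11 were also higher. With the read GC class in the model, 0 members passed in either direction by limma (1071 longer and 412 shorter at an unadjusted p under 0.05), and the 34 became 20, 14, 18, 5 and 5 without sham 1, BCAS 1, BCAS 2, BCAS 3 or BCAS 4.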

How the data were processed

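ATAC-seq libraries of 4 sham and 4 BCAS mice were used. Per the methods of the authors, trimming used Trim Galore, alignment to mm10 used Bowtie2 (2.3.4.3), alignments were handled in SAMtools (1.9), and MACS2 called the peaks of every library separately with options not given in the sources used here. Each deposited peak carries an integer score, a fold enrichment (a ratio) at its summit, a −log10 p-value and a −log10 q-value. The lowest deposited −log10 q was 1.309. No list holds read counts, so depth per peak is unknown.

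Member regions and gene lists were chosen with earlier results of these data known. Log2 fold enrichment of the highest peak per region and library was quantile normalized over the 71712 regions with a peak in all 8 libraries and tested with limma 3.58.1 (trend, adjusted p under 0.05) in R 4.3.3. Covered length was centred on library medians. Single values were tested by exact permutation over 70 labelings. Python 3.11.15, numpy 2.4.6, pandas 2.3.3, scipy 1.17.1 and matplotlib 3.10.9 were used. TSSs came from GENCODE (basic) and sequence from GRCm38. The scripts were tested on simulated data. Named regions were those with the 10 highest ranks, 10 smallest SDs, 10 largest increases and decreases among calls whose groups did not overlap, 5 largest length changes, genes named by the study and examples of each list, leaving out predicted genes. Shorter calls held no named gene. Alternatives covered peak thresholds, scaling, the height measure, covariates and each library left out. Some items are not reported here.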

Additional observations from a re-analysis of the deposited data

Results flagged for a closer look

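In 4 of 94 groups of 4 libraries, 1 library stood apart by Dixon's ratio of the gap to the range, and chance flags about 1 in 20 groups. The median height percentile of members was 63.6 in BCAS 1 and 66.5, 66.8 and 66.9 in the other BCAS libraries. The scaled height at Trpm3 was 10.1 in sham 4 and 11.8, 11.8 and 11.9 in the other sham libraries. At Irf1 it was 10.3 in sham 4 and 12.8, 12.6 and 12.5 in the others. At Csf1r it was 7.81 in BCAS 1 and 9.82, 9.62 and 9.74 in the others.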

How the results depend on the processing

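The number of member regions stayed within 1.5 times the reported one in all 14 alternatives (20407 to 21159 without 1 library). Members higher in height numbered 807 with −log10 q as the height, 74 with read GC class in the model and 158 to 290 without 1 library. Members lower in height numbered 98 with quantile normalization over the members alone, 111 with −log10 q, 7 with the read GC class, 24 within 1 kb of a TSS and 18 to 42 without 1 library. Members longer in covered length numbered 83 with regions called in at least 4 libraries, 10 with the number of peaks as a covariate, 0 with the read GC class and 5 to 40 without 1 library. Shorter members numbered 16, 0 and 0 in the first 3 of these alternatives, 1 with peaks of −log10 q of at least 5, 1 with no scaling, 7 scaled to the total length, 3 by limma without trend and 0 to 2 without 1 library. Scaling to the total length moved the median length difference from 0.032 to -0.051. Higher members with the PU.1 letters numbered 83 with −log10 q, 11 with the read GC class and 24 to 41 without 1 library. Lower members with the AP-1 letters numbered 29 with members-only normalization, 28 with −log10 q, 7 with the number of peaks, 2 with the read GC class and 2 to 9 without 1 library. The difference in median height percentile passed the exact permutation test with −log10 q as the height (3.51 points, p = 0.0286), and its p ranged from 0.0286 to 0.25 over the alternatives. The cause was not tested for any of these.

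Over 44 named regions and 784 alternatives, 704 kept their direction and side of the threshold, 69 lost the call (11 regions), 11 gained one (7 regions) and 0 reversed. Replicate numbers did not pair the mice (correlations of deviations -0.0408, -0.0215, -0.0335 and 0.0714 for numbers 1 to 4). With the replicate block, 270 members were higher and 52 lower in height, and 0 longer and 0 shorter by limma. Depth per peak is unknown, labels and the quality table differ on the side of the cortex, and read GC overlaps with surgery.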
